A study of Mus musculus with 6 samples.

Results

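The p53 target genes described here are 33 mouse genes that p53 is known to activate after stress. They were taken by symbol from the array's probe-to-gene table, with the probeset of highest mean for each gene. Of the 33, 31 had a probeset that carried that symbol alone, and all 31 passed the filter on dim probesets. Bax and Gdf15 were not analysed here. The whole series held 19288 genes with such a probeset, of which 15145 were tested.

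The samples were 6 cultures of mouse fibroblasts, each read on 1 Affymetrix gene-level array. In 3 of them the cells carried shARF, a hairpin construct against ARF, and in the other 3 the control hairpin shSCR. Both groups share the background that the series title calls dp53R mouse embryonic fibroblasts, and every sample title bears the word Ras. The labels do not spell out dp53R. From the published work on these cells, and not from the labels, they are understood to lack p53 and to carry an oncogenic Ras. The p53 gene itself, Trp53, was not analysed here, so the arrays hold no check of that status. No p53-proficient cells were among the 6 arrays, so how much of any level depends on p53 was not measured. Each group has 1 construct, so an effect of lower ARF and another effect of that hairpin cannot be told apart. Sample titles call replicates biological, but no label ties them to separate isolates or animals, and the p-values below measure the spread between these arrays.

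As background, p53 is a transcription factor that binds DNA as a tetramer and switches on genes for cell cycle arrest, apoptosis, DNA repair and metabolic defence. Its partner and inhibitor MDM2, itself a p53 target, marks p53 for degradation, and ARF, which is made from the Cdkn2a locus, holds MDM2 back. In embryonic fibroblasts with intact p53, oncogenic Ras raises ARF and thereby p53 activity. Several p53 targets also answer to other factors and keep a basal level without p53.

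The DNA that p53 reads is a pair of 10-base units, here called p53 decamers, with a spacer of up to 13 bases between them. The promoters of 4 genes are shown as examples, chosen by the outcome of the test below. They are those of Ptchd4 and Eda2r, the 2 genes that passed it, and those of Mdm2 and Ccng1, the classic feedback targets, which did not. Each line gives, 5′ to 3′, the bases of the gene's most upstream RefSeq promoter window (build GRCm38.p6) that lie before the annotated bounds of the gene, and capitals mark a match to the p53 decamer consensus.
Ptchd4, chr17:42315697-42315850, plus strand: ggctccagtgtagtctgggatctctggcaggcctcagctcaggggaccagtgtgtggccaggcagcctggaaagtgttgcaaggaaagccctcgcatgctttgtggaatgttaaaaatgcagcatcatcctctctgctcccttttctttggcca
Eda2r, chrX:97377235-97377459, minus strand: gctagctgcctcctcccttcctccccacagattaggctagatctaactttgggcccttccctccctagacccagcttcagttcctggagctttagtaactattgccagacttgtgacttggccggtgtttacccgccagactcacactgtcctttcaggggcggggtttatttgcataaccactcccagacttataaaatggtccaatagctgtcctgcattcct
Mdm2, chr10:117710759-117711008, minus strand: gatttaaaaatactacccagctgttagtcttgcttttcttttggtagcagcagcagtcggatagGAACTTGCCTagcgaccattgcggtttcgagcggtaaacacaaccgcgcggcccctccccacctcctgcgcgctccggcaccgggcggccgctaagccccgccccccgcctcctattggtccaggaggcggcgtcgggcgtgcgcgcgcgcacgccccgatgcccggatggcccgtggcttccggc
Ccng1, chr11:40755310-40755536, minus strand: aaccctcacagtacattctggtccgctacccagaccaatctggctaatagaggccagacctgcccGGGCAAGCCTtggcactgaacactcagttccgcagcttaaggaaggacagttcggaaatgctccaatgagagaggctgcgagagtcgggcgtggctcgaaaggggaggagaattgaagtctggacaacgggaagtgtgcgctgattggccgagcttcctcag

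In these stretches Mdm2 held 1 decamer, whose first base lies 186 bases before the gene, and Ccng1 held 1, with its first base 162 bases before the gene. Ptchd4 and Eda2r held none, in these stretches or in the rest of their windows. The p53 decamer reads the same on both strands, so 1 scan covers both. Over the full 300-base windows of the RefSeq table, which run from 250 bases before a transcript start to 50 after it, 25 of the 33 genes had a promoter, 34 windows in all. A decamer stood in 10 of the 34 windows (29.4%), against 8.36% of all 32851 windows in the table. Some windows of 1 gene overlap, as those of Aen do, and share a decamer. The 9 genes with a decamer were Mdm2, Ccng1, Bax, Ei24, Aen, Gtse1, Polk, Sesn1 and Rap2b. Genes without one also included many that did not pass the test, such as Bbc3, Fas, Phlda3, Apaf1 and Tigar. A full pair of decamers stood in 0 of the 34 windows and in 24 of the 32851 (0.0731%). A pattern of core letters alone was CATG, then 6 bases of any kind, then CATG, the same on both strands. It stood in 0 of the 34 and in 234 of all windows (0.712%). These matches describe letters only, and the p53-responsive promoter of Mdm2 is known to lie in the first intron, outside the window.

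The hairpin's target was lower on each shARF array. Cdkn2a had a signal of 315, 254 and 286 on the shARF arrays, against 535, 539 and 516 on the shSCR arrays, a difference of -0.90 ± 0.086 (SE) on the log2 scale (limma, adjusted p = 0.00459). Its probeset may read both products of the locus, ARF and p16Ink4a. All 10 fibroblast markers were above the detection level, the 25th percentile of each array, on at least 3 arrays, with a summed signal of 18989 to 19652 in shARF and 17505 to 18969 in shSCR. Of these 10, Lum rose, by 1.28 ± 0.221 (SE) on the log2 scale (limma, adjusted p = 0.0276). SAM called 2 higher, Lum and Dcn, and 1 lower. Dcn differed by 0.71 ± 0.160, without passing in limma (adjusted p = 0.0625). The list went both ways, with 6 positive and 4 negative differences, and Thy1, the one that SAM called lower, differed by -0.38 ± 0.097 (limma, adjusted p = 0.0874). Among 10 macrophage markers, 6 were under the detection level of every array, including Ptprc, Adgre1 and Csf1r. The macrophage list summed to 245 to 283 in shARF and 234 to 259 in shSCR, and Cd53 rose by 0.66 ± 0.132 (limma, adjusted p = 0.0442). Cd68 of the same list was lower on all 3 shARF arrays, at -0.36 ± 0.101, without passing (limma, adjusted p = 0.11). The epithelial list summed to 561 to 697 in shARF and 488 to 517 in shSCR. Krt18 rose by 0.93 ± 0.176 (limma, adjusted p = 0.037), and Cdh1 was below detection on all arrays. SAM called 2 of this list higher, Krt18 and Krt8. Krt8 differed by 0.74 ± 0.164, without passing in limma (adjusted p = 0.0583). This list too went both ways, with 5 positive and 2 negative differences. Krt19 was lower on all 3 shARF arrays, at -0.20 ± 0.071, without passing (limma, adjusted p = 0.17). The lymphocyte list summed to 112 to 128 in shARF and 111 to 113 in shSCR, with 4 of 8 measured markers below detection on all arrays. The endothelial list summed to 145 to 154 in shARF and 141 to 157 in shSCR, with 2 of 8 below detection. The calls of Lum and Krt18 were kept only without shARF replicate 2, and that of Cd53 was lost without each of the 6 arrays (limma, adjusted p from 0.023 to 0.126 over these 3 genes). The part of these marker genes in the results below was not tested.

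Ptchd4 fell and Eda2r rose in shARF cells, and the other 29 p53 target genes did not pass the test. Of those 29, Zmat3 was nearly as far from 0 as Eda2r, at -0.49 against 0.53 on the log2 scale, and Tigar came next at -0.37. The median size of the difference was 0.153 for the 31 genes and 0.103 for all tested genes. The 2 called genes are 6.45% of the 31, and 4.01% of all tested genes were called by limma with a Benjamini-Hochberg threshold of 0.05, 1.62% as higher and 2.38% as lower, so the share among p53 targets lies near that of genes at large. Before adjustment, 9 of the 31 had a limma p below 0.05, 7 of them lower and 2 higher, where 22.2% of all tested genes had one, 13.4% lower and 8.76% higher. SAM called 3 of the 31, Zmat3 besides the same 2, where it called 6.58% of all tested genes. The differences were negative for 21 of the 31 genes (67.7%) and for 53.2% of all genes, with medians of -0.10 and -0.01 on the log2 scale. The arrays of the 2 groups did not overlap for 13 of the 31, 4 higher and 9 lower in shARF, where 28.6% of all genes did not overlap, 12.0% higher and 16.6% lower. In bulk RNA, fewer cells that express a gene and less RNA per cell cannot be told apart.

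**Figure D1:**
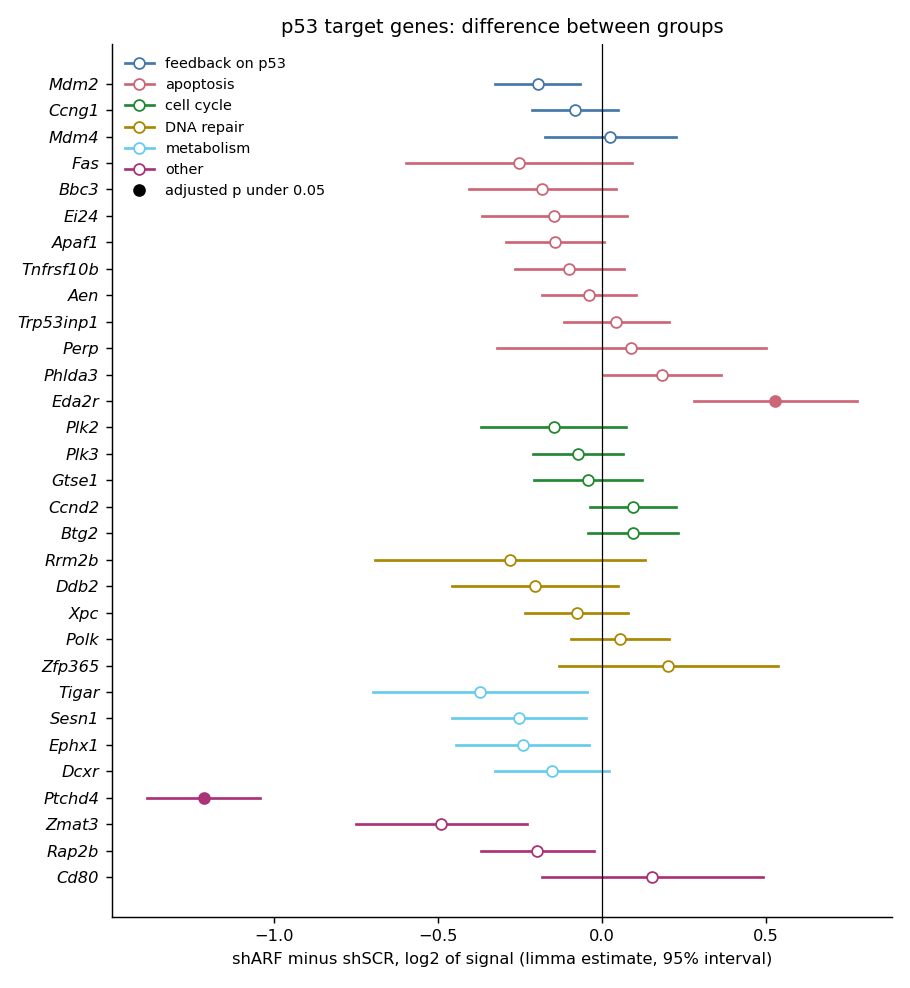
Difference between shARF and shSCR cells for the 31 measured p53 target genes, in log2 of signal, with 95% intervals from limma, grouped and coloured by role; filled points have an adjusted p under 0.05. Ptchd4 stands apart at -1.22 and Eda2r is highest at 0.53, while the other genes lie between -0.49 and 0.20.

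For 30 of the 31 genes, all but Ptchd4, the 95% interval of the difference excluded a 2-fold change in either direction, as it did for 98.9% of all tested genes. It excluded a 1.5-fold change for 25 of the 31 (80.6%), a smaller share than the 91.7% of all tested genes. The median SD between replicates was 0.091 on the log2 scale for these genes and 0.102 for all tested genes.

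**Figure D2:**
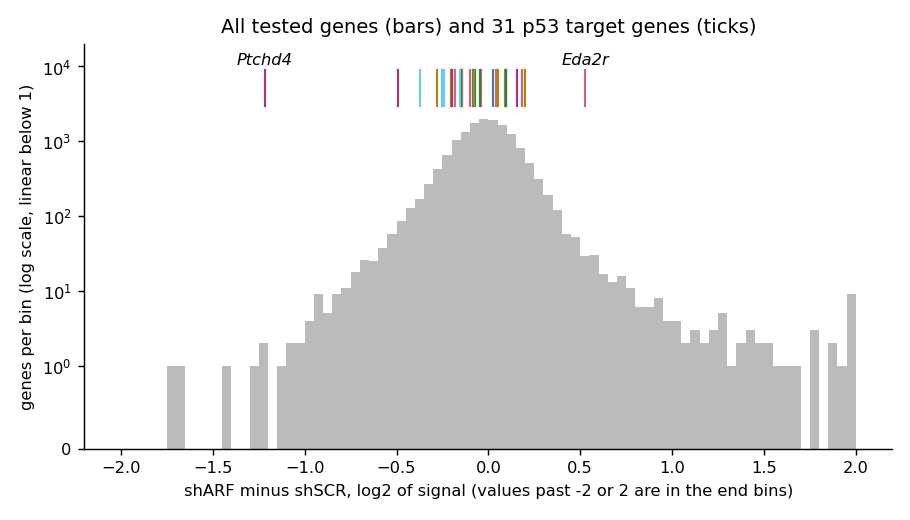
Number of tested genes in each bin of the shARF minus shSCR difference (grey bars, log2 of signal, log-scaled count axis), with 1 coloured tick for each of the 31 p53 target genes. Most ticks lie over the centre of the distribution, and 4 genes of the 15145 had a lower difference than Ptchd4.

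The feedback genes are those whose products act back on p53. Mdm2, which encodes the ubiquitin ligase that degrades p53, had a signal of 271, 273 and 263 in shARF, against 302, 309 and 313 in shSCR. The groups did not overlap, and the spread within each was small. The difference was -0.20 ± 0.055 (SE) on the log2 scale, with a 95% interval of -0.33 to -0.07, and did not pass over all genes (limma, adjusted p = 0.11). Ccng1, which encodes cyclin G1, a partner of a phosphatase that acts on MDM2, had 555, 555 and 554 in shARF, against 578, 577 and 609 in shSCR. Again the groups did not overlap, yet the difference was only -0.08 ± 0.056 (SE; limma, adjusted p = 0.442). Mdm4, which encodes the MDM2 relative that masks the activation domain of p53, had 286, 325 and 280 in shARF, against 275, 316 and 285 in shSCR. The groups overlapped, and the replicate 2 array was the highest in both.

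Of 10 measured genes of apoptosis, 1 rose and 9 did not pass, where 1.62% of all tested genes were called higher. Eda2r encodes a receptor of the tumour necrosis factor family that binds the A2 form of ectodysplasin. It had a signal of 28.2, 21.3 and 25.7 in shARF, against 16.9, 16.7 and 18.2 in shSCR. All 3 shARF arrays lay above all 3 shSCR arrays, and the shSCR values sat just over the detection level of 14.1 to 14.2 on those arrays. The 1.44-fold rise of Eda2r, 0.53 ± 0.106 in log2 units (SE), passed the test (limma, adjusted p = 0.0443). Its call was kept only without shARF replicate 2, and without each of the other 5 arrays the adjusted p in limma was 0.0956 to 0.134. Phlda3, which encodes a small protein that keeps the kinase AKT from the membrane, had 317, 276 and 271.5 in shARF, against 248, 251 and 261 in shSCR. The groups did not overlap, and the difference of 0.18 ± 0.076 (SE) did not pass (limma, adjusted p = 0.234).

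None of the other genes of this role passed. Apaf1, which encodes the scaffold of the apoptosome, had 123, 117 and 131 in shARF, against 139, 134 and 138 in shSCR, groups that did not overlap, and differed by -0.15 ± 0.064 (SE; limma, adjusted p = 0.254). Bbc3, which encodes the BH3-only protein PUMA, had 42.5, 39.4 and 47.0 in shARF, against 54.1, 47.0 and 45.2 in shSCR, with overlap. The death receptor gene Fas had 25.1, 37.5 and 29.0 in shARF, against 36.6, 32.5 and 38.8 in shSCR, and its 95% interval ran from -0.60 to 0.09. Fas and Perp, a membrane protein of desmosomes, had the widest intervals of this role, and for both the groups overlapped. Perp, Ei24, Tnfrsf10b, Aen and Trp53inp1 differed by 0.09, -0.15, -0.10, -0.04 and 0.04 on the log2 scale. Ei24 encodes an endoplasmic reticulum protein of autophagy. Tnfrsf10b encodes the mouse receptor of the death ligand TRAIL, Aen a nuclease of apoptotic DNA, and Trp53inp1 a stress protein that binds p53. Adjusted p-values of these 5 in limma ran from 0.423 to 0.808.

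**Figure D3:**
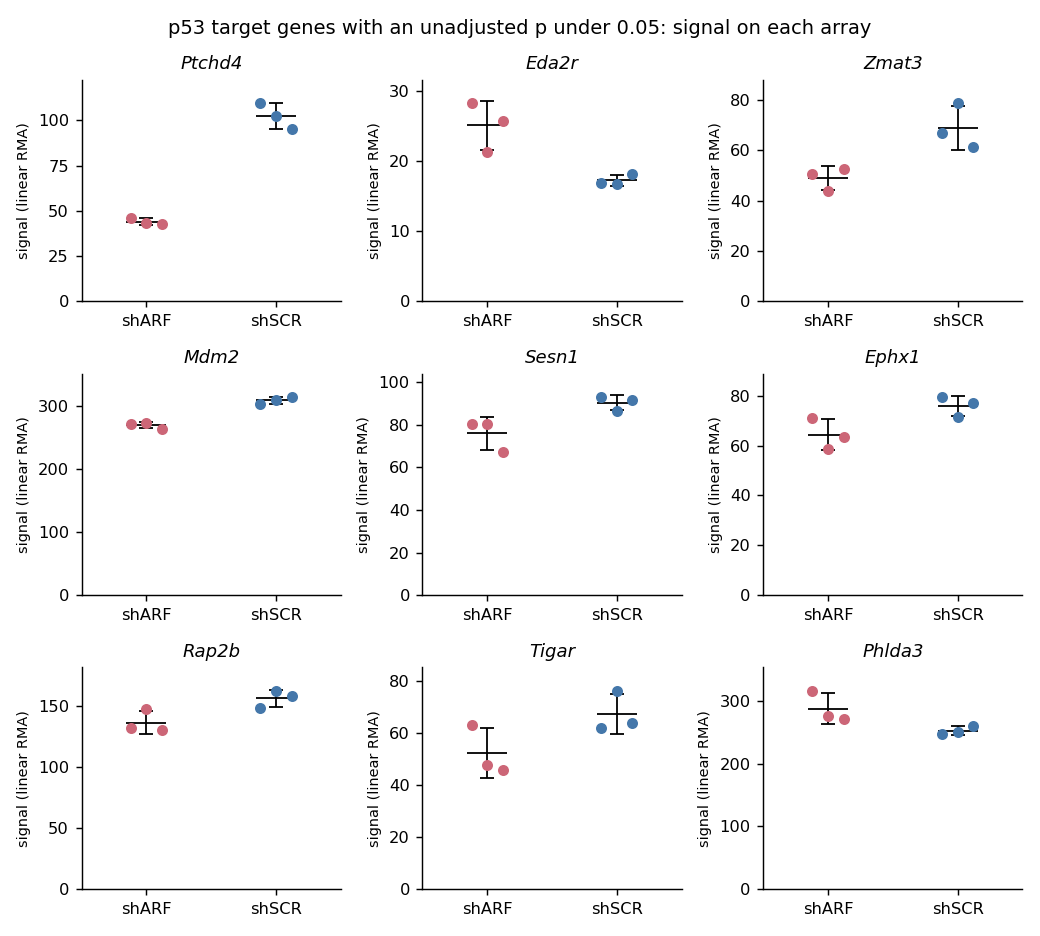
Linear signal on each array for the 9 p53 target genes with a limma p below 0.05 before adjustment, with shARF left and shSCR right of each panel; points are arrays, and bars are the mean and SD of 3 arrays. The groups overlap only for Tigar, and the separation of Ptchd4 is the widest relative to its spread.

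None of the 5 measured genes of cell cycle control and stress kinases passed in limma or SAM, and 0 had a limma p below 0.05 before adjustment. Ccnd2, which encodes cyclin D2, had 2512, 2530 and 2568 in shARF, against 2440, 2318 and 2373 in shSCR. Btg2, which encodes an antiproliferative factor, had 105, 109 and 104 in shARF, against 99.6, 96.2 and 102 in shSCR. Both pairs of groups were separate with differences of 0.09 on the log2 scale (limma, adjusted p = 0.382 for Ccnd2 and 0.403 for Btg2). The polo-like kinase genes Plk2 and Plk3 differed by -0.15 and -0.07, and Gtse1, which encodes a microtubule protein of G2 that also restrains p53, by -0.04, all with overlapping groups.

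The 5 DNA repair genes also held no call in limma or SAM and none with a limma p below 0.05 before adjustment, and for none of them were the groups separate. Ddb2, whose product finds ultraviolet damage in chromatin, had 40.6, 54.6 and 45.6 in shARF, against 52.7, 52.7 and 55.7 in shSCR. Its shARF replicate 2 lay inside the shSCR range. Rrm2b, which encodes the p53-inducible subunit of ribonucleotide reductase, had 88.6, 66.1 and 61.5 in shARF, against 73.8, 107 and 82.3 in shSCR, and its interval of -0.69 to 0.13 was the widest among the 31 genes. Zfp365, which encodes a zinc finger protein with a role in genome stability, differed by 0.20 ± 0.142 (SE), Xpc, the partner of Ddb2 in damage recognition, by -0.08 ± 0.067, and Polk, a translesion DNA polymerase, by 0.05 ± 0.064.

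All 4 measured genes of metabolism and antioxidant defence were lower in mean, and none passed in limma or SAM. Before adjustment 3 of the 4 had a limma p below 0.05, where 22.2% of all tested genes had one, 13.4% as lower. The median difference of the 4 was -0.25, against -0.10 for all 31 and -0.01 for all tested genes. Sesn1, which encodes a sestrin that restrains the growth kinase mTORC1, had 80.5, 80.6 and 67.2 in shARF, against 93.0, 86.3 and 91.9 in shSCR. Every shARF array was below every shSCR array, with a difference of -0.25 ± 0.087 (SE; limma, adjusted p = 0.166). Ephx1, which encodes the microsomal epoxide hydrolase, had 71.1, 58.5 and 63.4 in shARF, against 79.4, 71.6 and 76.9 in shSCR. These groups were separate by a narrow gap, with a difference of -0.24 ± 0.087 (SE; limma, adjusted p = 0.178). Tigar, which encodes a phosphatase that slows glycolysis, had 63.1, 47.5 and 45.8 in shARF, against 61.8, 76.0 and 63.6 in shSCR. Here shARF replicate 1 lay within the shSCR range, and the difference was -0.37 ± 0.139 (SE; limma, adjusted p = 0.192). Dcxr, which encodes a carbonyl and xylulose reductase, differed by -0.15 ± 0.074 (SE; limma, adjusted p = 0.296). Tigar and Ccnd2 are next to each other on chromosome 6 in the RefSeq table, and their differences were -0.37 and 0.09.

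The remaining 4 genes included the largest difference of the set. Ptchd4 encodes a membrane protein related to the Hedgehog receptor Patched, and its human counterpart was described as a p53 target that represses Hedgehog signalling. It had a signal of 46.2, 43.2 and 42.6 in shARF, against 109, 103 and 95.1 in shSCR. The groups were far apart relative to their spread, with means of 44.0 ± 1.92 in shARF and 102 ± 7.06 in shSCR (SD, n = 3 each). The 2.32-fold fall of Ptchd4, -1.22 ± 0.073 in log2 units (SE), passed the test (limma, adjusted p = 0.00121). The call was kept on leaving out each of the 6 arrays in turn (limma, adjusted p = 0.00347 to 0.0116). Another Ptchd4 probeset, with 53.8, 57.7 and 52.6 in shARF against 79.3, 82.2 and 74.9 in shSCR, was also lower, by a smaller amount, -0.53 ± 0.067 (SE; limma, adjusted p = 0.0107). The probesets thus shared the direction and differed in size, and both come from the same RNA.

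Zmat3, which encodes a zinc finger protein that binds RNA, had 50.6, 43.7 and 52.5 in shARF, against 66.8, 78.6 and 61.4 in shSCR. The groups were separate, and the difference of -0.49 ± 0.111 (SE) fell short of the threshold (limma, adjusted p = 0.0629). SAM, the test that the series' design text names, re-implemented here, did call it (estimated false discovery rate 0.0269). Rap2b, which encodes a small GTPase of the RAS family, had 132, 147 and 130 in shARF, against 149, 162 and 158 in shSCR, close but separate groups, with a difference of -0.20 ± 0.074 (SE; limma, adjusted p = 0.191). Cd80, which encodes a costimulatory ligand of T cells, was near the detection level, with 18.6, 15.2 and 21.6 in shARF against 17.5, 17.7 and 14.2 in shSCR. Its other probeset was below detection on all arrays.

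The 31 genes were also compared array by array. Relative to the shSCR mean of each gene, the median over the 31 genes was -0.083, -0.083 and -0.119 on shARF replicates 1, 2 and 3, and -0.005, 0.005 and -0.002 on shSCR replicates 1, 2 and 3. Over all tested genes the medians were -0.012, -0.002 and -0.023 on the shARF arrays and within 0.004 of 0 on the shSCR arrays. Of the 31 genes, 15 had their lowest shARF value on replicate 3, and 8 had it on each of the other two. Among the shSCR arrays, replicate 2 held both the highest value of 13 genes and the lowest of 13. All 3 shARF arrays lay on the same side of the shSCR mean for 17 of the 31 genes (54.8%), 5 above and 12 below, and for 55.4% of all tested genes. Ptchd4, Eda2r and Zmat3 were among the 17, while Fas, Perp, Zfp365, Rrm2b and Ddb2, among others, had shARF arrays on both sides of the shSCR mean.

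**Figure D4:**
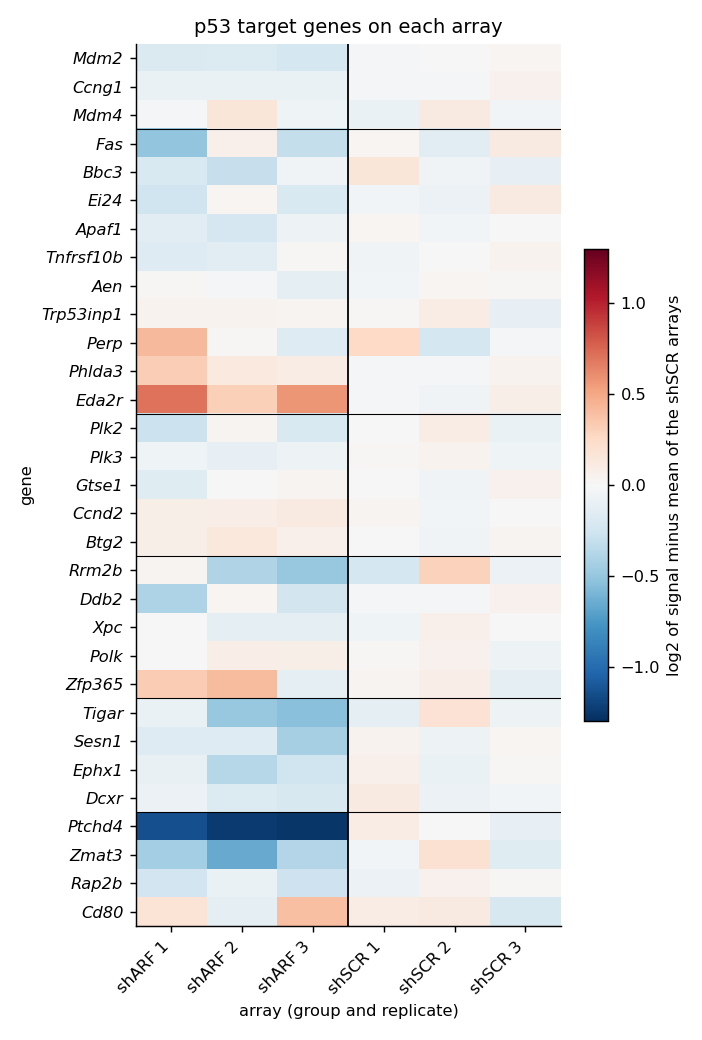
Log2 of signal minus the mean of the 3 shSCR arrays for each of the 31 p53 target genes (rows, grouped by role with lines between roles) on each array (columns, shARF left of shSCR). Ptchd4 is lower on all 3 shARF arrays and Eda2r higher on all 3; most other rows stay pale.

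Over 7 related lists, 141 measured genes held 1 that rose and 3 that fell (2.84%, against 4.01% of all tested genes), and the median difference was -0.01, the same as for all genes. The 3 that fell include Cdkn2a, the hairpin's own target. The p53 family and its regulators had 26 measured genes, of which Cdkn2a alone passed (median 0.04). Next by p-value were Setd7, a methyltransferase that acts on p53 and other proteins, at 0.22 ± 0.059 (SE; limma, adjusted p = 0.0975), and Ube2d1, a ubiquitin-conjugating enzyme, at -0.25 ± 0.102 (SE; limma, adjusted p = 0.226).

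Among 35 further p53 target genes, 1 rose and 1 fell (5.71%, against 4.01% of all tested genes), with a median of -0.04. Before adjustment 4 of the 35 were higher and 6 lower with a limma p below 0.05, where 8.76% of all tested genes were higher and 13.4% lower. Gadd45a, which encodes a stress protein of growth arrest, had 176, 179 and 199.9 in shARF, against 105, 146 and 117 in shSCR. The groups were separate, and Gadd45a rose by 0.61 ± 0.124 (SE; limma, adjusted p = 0.0469), a call kept only without shSCR replicate 2 (0.0223) and lost without each of the other 5 arrays (0.097 to 0.151). Igfbp3, which encodes a secreted binding protein of insulin-like growth factors, had 203, 161 and 163 in shARF, against 362, 297 and 356 in shSCR. It fell by 0.95 ± 0.119 on the log2 scale (SE; limma, adjusted p = 0.0102), a call lost without shSCR replicate 3 (0.0544) and kept without each other array. Ckap2, a spindle protein gene, and Notch1 came next, at -0.28 ± 0.071 and -0.37 ± 0.107 (SE; limma, adjusted p = 0.0869 and 0.119). Cdkn1a, the gene of the arrest protein p21, had only a probeset that it shares with another gene and was not analysed here.

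The pathways tied to the 2 called genes held 1 call. Of 16 measured Hedgehog genes, 0 passed in limma or SAM. Before adjustment 22.2% of all tested genes had a limma p below 0.05, 13.4% as lower, and 2 of the 16 did, both lower. These were Ptch1, the receptor gene that is also a standard readout of the pathway, at -0.16 ± 0.067, and Gpr161, which encodes a ciliary receptor that restrains it, at -0.21 ± 0.074 (SE; limma, adjusted p = 0.233 and 0.164). Gli1, another common readout, chosen after its values were seen, differed by -0.12 ± 0.061. The Hedgehog list held 4 positive and 12 negative differences (75% negative, against 53.2% of all tested genes). Its median was -0.04, against -0.01 for all tested genes. Hhip, also chosen after its values were seen, had the largest positive one, 0.20 ± 0.168, with overlapping groups. Of 17 measured genes of death receptor and ectodysplasin signalling, 1 fell (5.88%), where 4.01% of all tested genes were called, 2.38% as lower. Before adjustment 1 of the 17 was higher and 3 were lower with a limma p below 0.05. Birc3, which encodes the apoptosis inhibitor cIAP2, had 64.7, 60.8 and 59.9 in shARF, against 81.3, 84.0 and 78.0 in shSCR, and fell by 0.39 ± 0.063 (SE; limma, adjusted p = 0.0219), a call kept only without shARF replicate 1 (0.0472) and lost without each of the other 5 arrays (0.0613 to 0.0844). Tnfrsf21, the gene of death receptor 6, differed by -0.34 ± 0.085 and Cycs, the gene of cytochrome c, by 0.21 ± 0.063 (SE; limma, adjusted p = 0.0856 and 0.129). Eda, the ligand gene of Eda2r, chosen after its values were seen, had 39.6, 37.8 and 28.5 in shARF, against 49.7, 42.9 and 49.4 in shSCR, opposite in direction to its receptor, and did not pass (limma, adjusted p = 0.132).

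**Figure D5:**
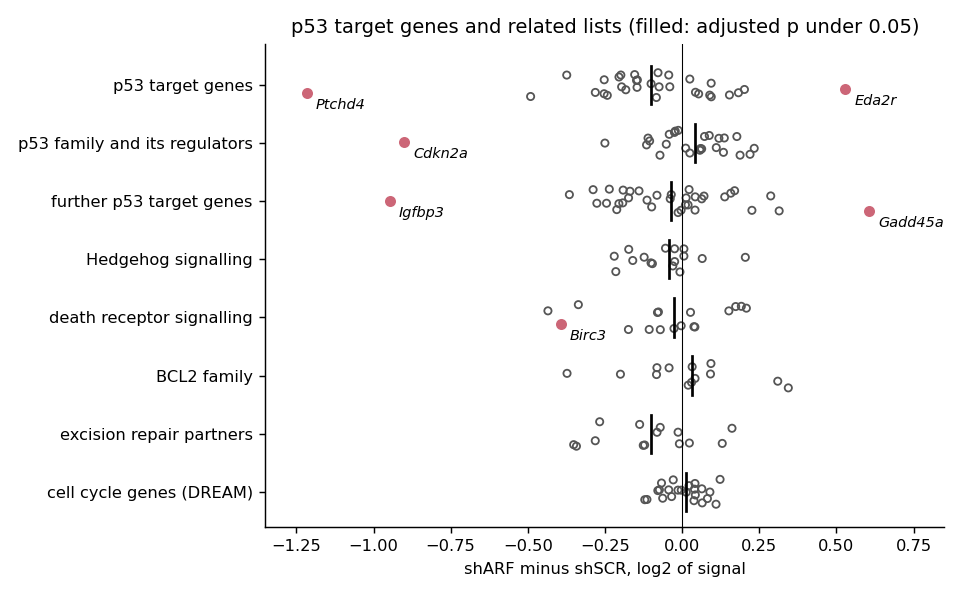
Difference between shARF and shSCR cells, in log2 of signal, for the 31 p53 target genes and 7 related gene lists; points are genes, filled and named where the adjusted p is under 0.05, and the black bar is the list median. Besides Ptchd4 and Eda2r, the named points are Cdkn2a, Igfbp3, Birc3 and Gadd45a, and the medians lie between -0.10 and 0.04.

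Of 13 genes of the BCL2 family none passed in limma, and Bok alone was called by SAM, as lower. Before adjustment 4 of the 13 had a limma p below 0.05, 2 in each direction. Of all tested genes 22.2% had one, 13.4% lower and 8.76% higher. Bok and Bak1, relatives of Bax in the outer mitochondrial membrane step, differed by -0.37 ± 0.085 and 0.31 ± 0.091 (SE; limma, adjusted p = 0.0636 and 0.121). Of 14 other genes of nucleotide excision repair none passed in limma or SAM. Before adjustment 4 of the 14, all lower, had a limma p below 0.05, where 13.4% of all tested genes did as lower. The median of the 14 was -0.10, as for the p53 target genes, against -0.01 for all tested genes. The smallest p-values were those of Ercc6 and Ercc3, at -0.34 ± 0.096 and -0.28 ± 0.079 (SE; limma, adjusted p = 0.107 and 0.108). Ercc8, chosen after its values were seen, had the largest difference of this list, -0.35 ± 0.099 (limma, adjusted p = 0.108). Of 23 cell cycle genes that p53 lowers through p21 and the DREAM complex, 0 passed in limma or SAM, and 0 had a limma p below 0.05 before adjustment. Their differences ran from -0.12 for Birc5 to 0.12, with a median of 0.01, and Cdc25c differed by -0.11.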

How the data were processed

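Total RNA from 6 fibroblast cultures, 3 shARF and 3 shSCR, was amplified and hybridised to Affymetrix arrays, per the labels' protocols. The authors deposited 1 linear intensity per core probeset, made with RMA in Affymetrix Expression Console, as the design text states. That text also describes a filter on absent probesets over more arrays than the 6 used here, and whether the table had it was not settled. RMA is known to shrink differences of dim genes, and its quantile step removes shifts shared by most genes. Here log2 of the deposited intensity was taken. Depth has no counterpart on arrays, and 3 arrays a group limit precision. Array medians were 41.97 to 42.86.

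Genes were named from GEO's platform annotation: 21056 probesets had 1 symbol, 1450 several and 4345 none. Probesets above the 25th percentile on at least 3 arrays (20310) were tested with limma 3.58.1 in R 4.3.3, two-sided, with Benjamini-Hochberg adjustment over all of them and a threshold of 0.05. Simulated arrays had independent normal noise, and 100 of these 20310 probesets were changed at each size. On them limma recovered 83% of changes of 1 and 48% of changes of 0.5 (log2). Recovery depends on the share of changed genes, which is not known for the real arrays. Alternatives covered filter, normalization, offset, probesets, variance model, test, block and arrays. The genes and lists were chosen with earlier results of these data known. The naming rule took all p53 targets, Cdkn2a, Trp53, Cdkn1a, called genes of related lists and the next 2 by p, and called markers. Outside it, Gli1, Hhip, Eda, Ercc8, Thy1, Dcn, Cd68, Krt8 and Krt19 were named after their values were seen. Ptprc, Adgre1, Csf1r and Cdh1 were named as defining markers below detection. Promoters came from RefSeq.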

Additional observations from a re-analysis of the deposited data

How the results depend on the processing

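The number of p53 target genes called, 2 of 31, was 3 with SAM, with an offset of 16 and with a trended robust variance, where Zmat3 joined (-0.49, -0.38 and -0.49), and 1 with no filter, the ordinary t statistic, repeated quantile normalization, the replicate block and without the replicate 2 arrays of both groups, where Ptchd4 remained and Eda2r was lost. Leaving out 1 array gave 1 to 2. The count over all genes was 607, 997 with SAM, 372 with no filter, 978 with the offset, 55 with the ordinary t statistic, 336 with the replicate block, 1281 with the trended robust variance, 137 without both replicate 2 arrays (59.1% of them higher, against 40.5% with all arrays), and 150 to 330 without 1 array. Related genes called were 4, and 7 with the offset, 0 with the ordinary t statistic, 2 with the replicate block, 13 with the trended robust variance, 1 without both replicate 2 arrays and 1 to 4 without 1 array. Cdkn2a kept its call in all settings but the ordinary t statistic (-0.90, adjusted p = 0.0698). Of 527 values for single p53 target genes under the alternatives, 508 kept direction and side of the threshold, 10 lost the call (all Eda2r), 3 gained one (all Zmat3) and 6 changed sign, each without 1 array. These were Mdm4 (-0.041 without shARF replicate 2 and -0.017 without shSCR replicate 1, range -0.041 to 0.084), Perp (-0.076 without shARF replicate 1 and -0.027 without shSCR replicate 2, range -0.076 to 0.220), Trp53inp1 (-0.011 without shSCR replicate 3, range -0.011 to 0.090) and Gtse1 (0.012 without shARF replicate 1, range -0.081 to 0.012). The cause of each change was not tested, except that fewer arrays leave fewer samples. Same-numbered arrays of the 2 groups deviated from their group means with correlations of 0.078, 0.052 and 0.001, so the numbers were not taken to pair them. Signal close to the detection level limits Eda2r and Cd80.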
